A study of Mus musculus with 12 samples.

Results

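The 10 genes described here are Lyz1, Lyz2, C1qb, Ctss, Pf4, Ms4a7, Csf1r, Laptm5, Cd68 and Cd14, out of 18193 genes that the array platform's annotation names. Every probe set that carries 1 of these symbols was taken, which gave 21 probe sets. Of these, 17 passed the filter on low signals, and every one of the 10 genes had at least 1 that passed. The genes were picked because earlier results of the same arrays had shown them high on some arrays. Their levels, calls and counts are therefore given as a description, and no p-value is printed for them.

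All 10 are genes of macrophages, the phagocytes that develop from blood progenitors under the growth factor Csf1 and the transcription factor PU.1, and that also colonise the early embryo from the yolk sac. Macrophages carry lysozymes, complement C1q, cathepsins and pattern recognition receptors for taking up and digesting microbes and dead cells. Mouse embryonic stem (ES) cells, which are derived from the inner cell mass of the blastocyst, are not known for this programme. Several of the 10 genes are also used by other cells, Pf4 by megakaryocytes and Cd68 by many cells with lysosomes.

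The data are 12 arrays of RNA from mouse ES cells, with 3 biological replicates for each of 4 genotypes. The cells were wild type, Ring1B deficient by gene targeting, Eed deficient by gene targeting, or deficient in both, and the double deficient cells came from targeting Ring1B in the Eed deficient line, so those genotypes share the Eed mutation and a line of origin. Ring1B is the product of Rnf2 and serves PRC1, a Polycomb complex, as its ubiquitin ligase. Eed belongs to PRC2, the Polycomb complex that methylates histone H3. No treatment, time course or second line of any genotype is labelled, growth on feeder cells is not stated in the sources used here, and a difference between genotypes cannot be told apart from a difference between lines.

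The values are MAS5 signals on a linear scale, with array medians from 19.07 to 28.01. The 40th percentile of an array, the bar for the filter, lay between 12.1 and 19.1, and signals around or under it are close to background. The signal of each targeted gene was lower in cells labelled deficient in it, but a larger part of the Rnf2 signal remained than of the Eed signal. Eed fell from 1428 ± 159 in wild type to 37.8 ± 13.1 without Eed and 71.2 ± 21.0 without both proteins (SD, n = 3, brightest probe set). Rnf2 fell from 851 ± 124 to 468 ± 65.7 without Ring1B and 383 ± 18.8 without both. The stem cell factor Pou5f1 was at 2735 ± 294 in wild type and 1550 ± 148 in double deficient cells.

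One array stands apart for these genes. In Eed deficient replicate 3, Lyz1 lay 4.21 above the mean of the other Eed deficient arrays on the log2 scale, the highest of 13984 genes tested, and Lyz2 lay 3.32 above it and ranked 3. Ms4a7 ranked 8, Ctss 16, Pf4 22 and C1qb 40. Genes at least 4-fold above the other arrays of their genotype numbered 20 on that array, 0.143% of the genes tested, and 4 of the 20 were Lyz1, Lyz2, Ms4a7 and Ctss. On each of the other 11 arrays between 0 and 12 genes passed that bar, none of them 1 of the 10. Differences from Eed deficient cells and the correlations of the 6 genes that ranked high are therefore given with and without this array. It also enters the other comparisons, through the shared estimate of the spread and the filter, and a count that it changes there is given both ways.

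The lysozymes are enzymes that cleave the peptidoglycan of bacterial walls. In the mouse, Lyz2 is the form of macrophages and other myeloid cells, and Lyz1 is the form of Paneth cells in the intestine. The genes are neighbours on chromosome 10 of GRCm38.p6, with Lyz2 at chr10:117277541-117282272 and Lyz1 at chr10:117287795-117292868, 5522 bases apart and both on the minus strand. Their upstream sequences, from RefSeq, are shown because the genes share much of them. The signals under both names also moved together on the arrays, but may be a single signal, as described below. Each run is the 250 bases before the start site, chr10:117292869-117293118 for Lyz1 and chr10:117282273-117282522 for Lyz2, and capitals mark positions where the 2 runs differ when set side by side without gaps.
Lyz1: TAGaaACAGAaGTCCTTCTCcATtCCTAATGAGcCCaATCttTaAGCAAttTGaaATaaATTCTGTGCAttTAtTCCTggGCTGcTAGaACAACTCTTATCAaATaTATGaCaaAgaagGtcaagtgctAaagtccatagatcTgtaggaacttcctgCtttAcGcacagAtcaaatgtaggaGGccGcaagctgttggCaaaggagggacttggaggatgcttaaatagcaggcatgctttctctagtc
Lyz2: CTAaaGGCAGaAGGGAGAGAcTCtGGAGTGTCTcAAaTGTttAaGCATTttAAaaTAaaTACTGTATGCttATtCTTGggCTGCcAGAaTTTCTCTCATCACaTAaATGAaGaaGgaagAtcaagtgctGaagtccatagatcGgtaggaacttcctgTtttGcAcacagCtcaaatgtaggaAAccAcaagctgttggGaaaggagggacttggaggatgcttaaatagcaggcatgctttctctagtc
Of the 250 positions, 152 were the same, and of the 100 nearest the start site, 92 were the same. The capitals thus lie mostly in the far part of the window. Without gaps, a shared stretch that is shifted by a base is also marked as different, as happens in the far part. The capitals there are thus no measure of how unlike the 2 runs are.

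Lyz2 has 1 probe set. Its signal was 31.0, 21.6 and 86.4 in wild type replicates 1 to 3, 41.9, 17.3 and 40.5 in Ring1B deficient, 38.3, 25.6 and 357 in Eed deficient and 212, 322 and 278 in double deficient replicates. All double deficient arrays were above every wild type and Ring1B deficient array, and 1 of the 3 Eed deficient arrays was above all of them. Wild type replicate 3 was the highest of the remaining arrays, 1.56 above the mean of the other wild type arrays in log2, rank 13 of all genes there.

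Lyz1 has 3 probe sets. The brightest gave 31.7, 10.1 and 85.8 in wild type, 38.2, 10.3 and 19.5 in Ring1B deficient, 41.6, 20.2 and 631 in Eed deficient and 349, 527 and 356 in double deficient replicates 1 to 3. A weaker one followed it, with 3.62 to 13.7 on Eed deficient replicates 2 and 1, 580 on replicate 3 and 140, 335 and 184 on the double deficient arrays. Both carry the platform suffix for probe sets with probes that can also bind other transcripts. The last, which lacks that suffix, stayed between 0.907 and 14.4 on all 12 arrays, under the filter. With the lysozyme genes so alike, Lyz1 signal and Lyz2 signal cannot be told apart by the first pair of probe sets, whose correlation with Lyz2 was 0.99 over the 12 arrays for the brighter one. In bulk RNA such as this, more cells of a type and more RNA per cell cannot be told apart either.

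C1qb and Pf4 are secreted proteins. C1qb, at chr4:136880126-136886200, encodes the B chain of complement C1q, which starts the classical complement pathway. Its brightest probe set gave 7.45, 8.74 and 8.19 in wild type, 7.87, 4.74 and 7.34 in Ring1B deficient, 7.25, 12.1 and 43.2 in Eed deficient and 21.1, 34.0 and 37.2 in double deficient replicates. The high arrays were again Eed deficient replicate 3 and the double deficient arrays, and both other C1qb probe sets had the same high arrays, at 33.4 and 27.2 on Eed deficient replicate 3. C1qa and C1qc, which encode the partner chains, were under the filter, at 0.596 to 11.8 and 0.757 to 6.47, although their highest values also fell on those arrays. Pf4, at chr5:90772435-90773383, encodes platelet factor 4, a chemokine. Its signal was 17.8, 17.5 and 26.2 in wild type, 23.0, 10.5 and 14.0 in Ring1B deficient, 22.0, 18.1 and 92.1 in Eed deficient and 50.2, 91.3 and 53.8 in double deficient replicates.

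The upstream windows of C1qb and Pf4 are shown, as examples from the group that moved with the lysozymes, with a motif of the factor PU.1, which is encoded by Spi1 and directs macrophage development. Capitals mark the letters GAGGAA, or TTCCTC where the match is on the other strand. The windows are chr4:136886201-136886450 on the minus strand for C1qb and chr5:90772185-90772434 on the plus strand for Pf4, from RefSeq, GRCm38.p6.
C1qb: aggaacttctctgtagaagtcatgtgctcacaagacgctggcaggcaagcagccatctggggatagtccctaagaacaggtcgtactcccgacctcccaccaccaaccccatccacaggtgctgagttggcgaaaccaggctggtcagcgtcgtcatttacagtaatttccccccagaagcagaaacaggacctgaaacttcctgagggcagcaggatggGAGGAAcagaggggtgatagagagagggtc
Pf4: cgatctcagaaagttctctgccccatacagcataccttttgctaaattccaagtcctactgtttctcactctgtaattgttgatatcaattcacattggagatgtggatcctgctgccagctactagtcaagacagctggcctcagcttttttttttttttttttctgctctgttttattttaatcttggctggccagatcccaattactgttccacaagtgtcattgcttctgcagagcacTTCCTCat
RefSeq windows were at hand for 8 of the 10 genes, 9 windows in all, and 5 of the 9 held the motif, those of Ctss, Laptm5, C1qb, Pf4 and Cd68. The windows of Lyz1, Lyz2 and Ms4a7 did not hold these letters. Of 32851 windows of the same length over all genes, 23.3% held it. Laptm5 and Cd68, which did not follow the lysozymes, had it too. A match is a run of letters and not evidence of binding. Spi1 itself stayed between 16.4 and 36.3 on the 12 arrays.

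Ctss, Cd68 and Laptm5 encode proteins of lysosomes and endosomes. Ctss, at chr3:95526786-95556405, is cathepsin S, a protease that trims the invariant chain for antigen presentation. Its signal was 8.34, 6.38 and 19.9 in wild type, 9.85, 5.91 and 6.69 in Ring1B deficient, 9.09, 7.71 and 56.2 in Eed deficient and 44.5, 61.7 and 42.2 in double deficient replicates. It thus had the high arrays of the lysozymes, with wild type replicate 3 next below them. Cd68, at chr11:69664213-69666170, is a heavily glycosylated membrane protein of lysosomes and a common stain for macrophages. Its signal was 59.4, 79.0 and 88.0 in wild type, 67.0, 112 and 62.7 in Ring1B deficient, 27.9, 88.2 and 50.5 in Eed deficient and 35.0, 53.6 and 36.0 in double deficient replicates. The double deficient arrays were all below the wild type arrays, the opposite of Ctss.

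Laptm5, at chr4:130912890-130936148, is a lysosomal membrane protein of blood cells. Of its 5 probe sets, the brightest gave 148, 122 and 175 in wild type, 257, 197 and 232 in Ring1B deficient, 132, 116 and 117 in Eed deficient and 83.6, 128 and 98.7 in double deficient replicates. The Ring1B deficient arrays were the highest and did not overlap with wild type, while the double deficient arrays did. The next probe sets had smaller differences between genotypes, with means from 50.8 to 74.0 and from 20.7 to 27.0, and the other 2 were under the filter.

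Ms4a7, Csf1r and Cd14 encode proteins of the cell surface. Ms4a7, at chr19:11321039-11336146, is a membrane protein of the MS4A family found on macrophages. Its kept probe set gave 1.93, 1.63 and 15.9 in wild type, 4.37, 0.999 and 1.69 in Ring1B deficient, 4.34, 3.70 and 41.6 in Eed deficient and 33.9, 60.3 and 20.5 in double deficient replicates. It had the arrays of the lysozymes, wild type replicate 3 included. Its other probe set stayed at or under 4.10 on all arrays.

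Csf1r, the receptor for Csf1 that macrophages need to survive, had another pattern. Its brightest probe set gave 16.0, 36.4 and 18.6 in wild type, 28.8, 39.3 and 25.8 in Ring1B deficient, 54.8, 123 and 78.5 in Eed deficient and 51.2, 90.9 and 95.0 in double deficient replicates. All 6 arrays without Eed lay above the 6 with it, and Eed deficient replicate 3 was in the middle of its group. A weaker probe set had the same split, with 3.16 to 8.83 in wild type against 25.2 to 46.2 in Eed deficient and 17.6 to 30.1 in double deficient cells. The remaining one did not, with 19.4 to 39.1 in wild type, 33.2 to 46.3 in Eed deficient and 32.7 to 60.1 in double deficient cells, so the probe sets of Csf1r disagree.

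Cd14 is the co-receptor that hands bacterial lipopolysaccharide to Toll-like receptor 4. Its signal was 2.88, 4.47 and 2.82 in wild type, 3.20, 18.5 and 14.8 in Ring1B deficient, 10.1, 31.7 and 35.2 in Eed deficient and 32.9, 44.7 and 32.8 in double deficient replicates. Wild type arrays were the lowest, double deficient arrays were mostly the highest, and 2 of 3 Ring1B deficient arrays lay above wild type. By the brightest probe set of each gene, Cd14 and Csf1r are therefore the 2 genes whose Eed deficient arrays all lay above wild type.

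**Figure D1:**
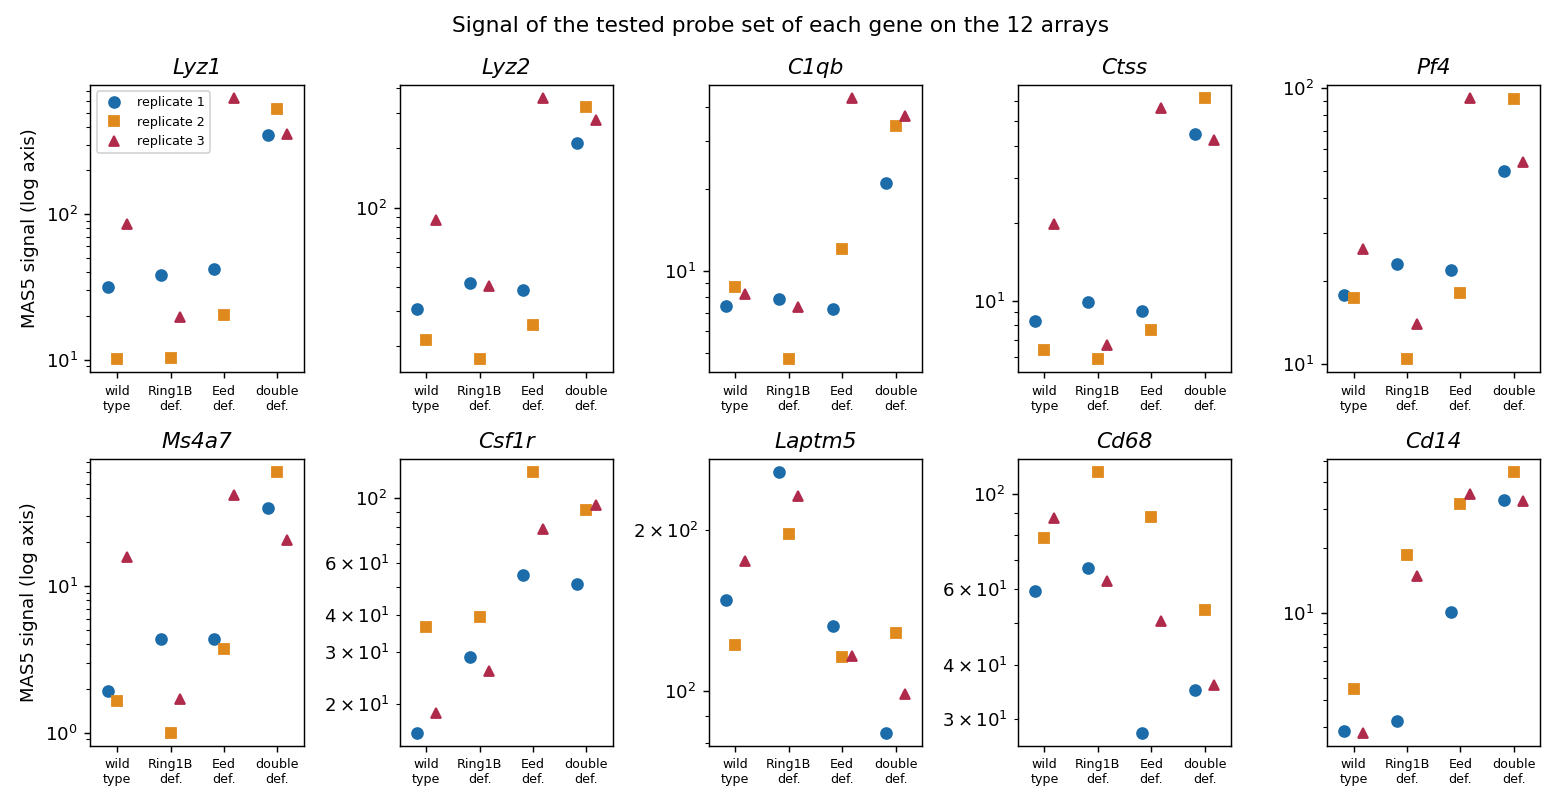
MAS5 signal (log axis, own scale in each panel) of the tested probe set of each of the 10 genes on the 12 arrays, 3 per genotype, with a colour and a shape per replicate number. In the panels of Lyz1, Lyz2, C1qb, Ctss, Pf4 and Ms4a7, Eed deficient replicate 3 (triangle) lies with the 3 double deficient arrays, while Csf1r and Cd14 are higher on all Eed deficient and double deficient arrays than in wild type.

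The genotypes were then compared in log2(signal + 5), on which differences of dim genes are smaller than the ratio of their signals. Double deficient minus wild type was 3.47 for Lyz1 (SE 0.92), 2.61 for Lyz2 (SE 0.71), 2.03 for Ms4a7 (SE 0.61) and 1.79 for Ctss (SE 0.49). It was 1.43 for Pf4 (SE 0.44), 1.42 for C1qb (SE 0.40), 2.31 for Cd14 (SE 0.41) and 1.57 for Csf1r (SE 0.32). For these 8 genes no double deficient array overlapped with wild type, where 27.8% of all genes tested were higher without overlap. C1qb passed the filter only through arrays without Eed, and Cd14 only through mutant arrays, where they were high. Ctss and Ms4a7 passed it through Eed deficient replicate 3, the double deficient arrays and wild type replicate 3. The counts that hold these genes thus follow in part from the filter. Cd68 differed by -0.80 (SE 0.33) and was the 1 gene lower without overlap, where 18% of all genes were, and Laptm5 differed by -0.51 (SE 0.18). The limma fit over all 13984 genes, at a Benjamini-Hochberg adjusted p under 0.05, called 8 of the 10 higher and Laptm5 lower, against 19.5% of all genes called higher and 11.4% lower. With Eed deficient replicate 3 left out, the 8 were called higher and Laptm5 was not called lower, where 18.7% of all genes were called higher and 10.6% lower. The call of Laptm5 was lost when any 1 of 9 of the 12 arrays was left out. Quantile normalization gave 7 higher and 2 lower, and median centring gave 8 and 2. Because these genes were chosen on such differences, nothing is read from the counts. The median difference of the 10 genes was 1.68, and that of all genes tested was 0.10. The count of 8 fell to 5 without wild type replicate 2 and to 4 without double deficient replicate 2.

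In Ring1B deficient against wild type cells, Laptm5 differed by 0.61 (SE 0.18), with no overlap between the groups, where 11.9% of all genes were higher and 10.8% lower without overlap, and Cd14 by 0.90 (SE 0.41), with overlap. The lysozymes differed by -0.55 for Lyz1 (SE 0.92) and -0.29 for Lyz2 (SE 0.71), and the sign of both rested on wild type replicate 3, since without it they were 0.10 and 0.23. None of the 10 genes was called by limma in either direction, where 4.68% of all genes were called higher and 2.5% lower. At an unadjusted p under 0.05, 2 were higher and 0 lower, against shares over all genes of 11.1% and 9.38%.

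In Eed deficient against wild type cells, Csf1r differed by 1.65 (SE 0.32) and Cd14 by 1.75 (SE 0.41). These 2 were called higher and none lower, where 10.8% and 4.56% of all genes were called. They were also the 2 without overlap between the groups, where 18.6% of all genes were higher and 11.8% lower without overlap. The 10 genes were chosen with earlier results known, and Cd14 passed the filter only through mutant arrays. Nothing is therefore read from the calls in this comparison, with or without an array left out. The lysozymes differed by 1.30 for Lyz1 (SE 0.92) and 0.82 for Lyz2 (SE 0.71), with large errors because 1 of the 3 arrays carried the difference. Without Eed deficient replicate 3, the difference was -0.11 for Lyz1, -0.29 for Lyz2, -0.22 for Ctss, -0.13 for Ms4a7 and -0.01 for Pf4. C1qb went from 0.72 to 0.14. Csf1r kept its difference and its call without that array, at 1.68 (SE 0.37), while Cd14, at 1.49 (SE 0.45), was no longer called, where 7.25% of all genes were called higher.

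The step from Eed deficient to double deficient cells turned on the same array. With all arrays, Lyz1 was 2.17 higher in double deficient cells (SE 0.92), Lyz2 1.80 (SE 0.71), Ms4a7 1.37 (SE 0.61) and Ctss 1.28 (SE 0.49), and none of the 10 genes was called by limma, where 1.07% of all genes were called higher and 0.822% lower. At an unadjusted p under 0.05, 4 were higher and 0 lower, where 10.5% of all genes were higher and 6.83% lower. The groups overlapped for all 10 genes, where 15.4% of all genes were higher and 9.55% lower without overlap. Without Eed deficient replicate 3, the difference was 3.57 for Lyz1 (SE 0.60), 2.90 for Lyz2 (SE 0.45), 2.01 for Ctss (SE 0.33), 1.44 for Pf4 (SE 0.31) and 1.28 for C1qb (SE 0.30). These 5 were then called higher, where 1.47% of all genes were, and Ms4a7 at 2.16 (SE 0.51) was not. That array was set apart because these genes were high on it. Leaving it out raises their differences and lowers their spread, so nothing is read from these calls. Csf1r differed by -0.08 with all arrays and by -0.10 without that one, with SEs of 0.32 and 0.37, so no further difference of Csf1r beyond Eed deficiency was detectable with either set.

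The interaction compares the effect of Ring1B deficiency in cells without Eed with its effect in cells with Eed. None of the 10 genes was called by limma, where 0.708% of all genes were called higher and 1.19% lower, and at an unadjusted p under 0.05, 1 was higher and 1 lower, near the 8.68% and 7.9% of all genes. Lyz1 had an interaction of 2.72 (SE 1.30), Lyz2 of 2.09 (SE 1.01) and Ctss of 1.61 (SE 0.69). Without Eed deficient replicate 3 they were 4.12 (SE 0.81), 3.19 (SE 0.61) and 2.34 (SE 0.45), and these 3 genes were called higher, where 0.971% of all genes were. Nothing is read from these calls either, since that array was set apart by the high values of these genes. Laptm5 went the other way, with an interaction of -0.85 (SE 0.26), or -0.88 (SE 0.29) without that array, and was called in neither fit. It was the gene called lower with the replicate number as a block.

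**Figure D2:**
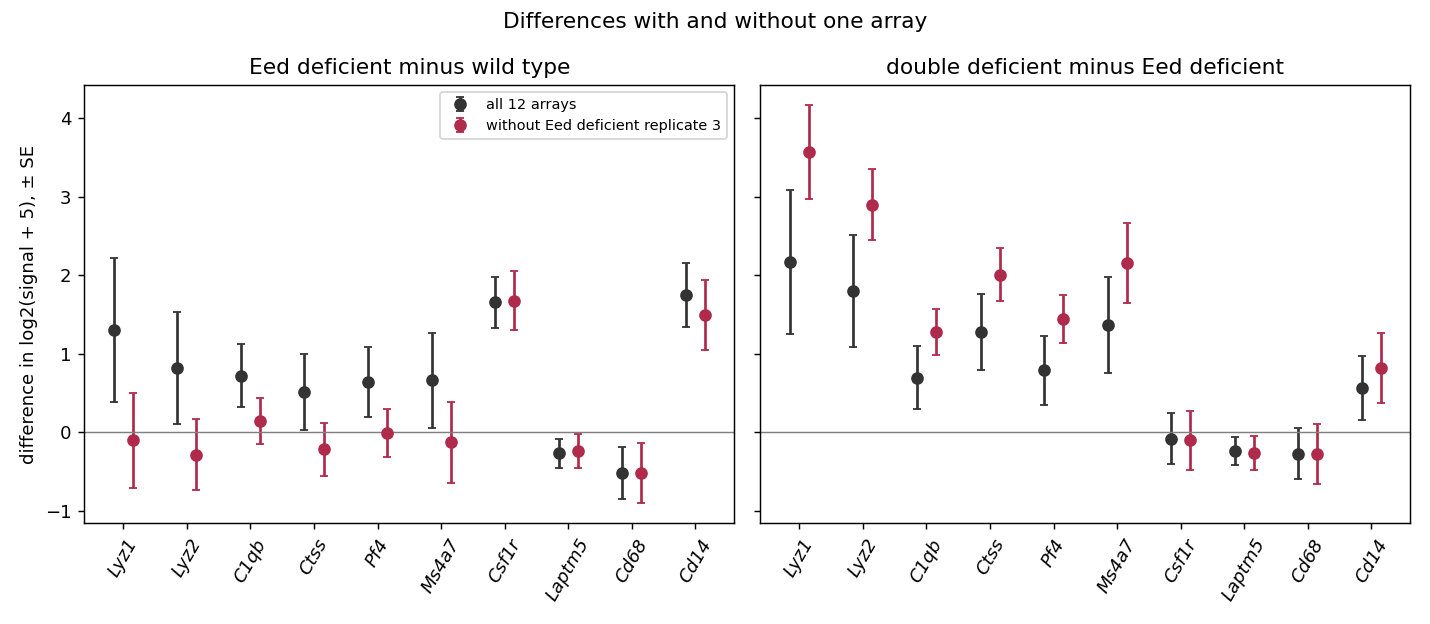
Difference in log2(signal + 5), with its SE, for the 10 genes in Eed deficient minus wild type (left) and double deficient minus Eed deficient cells (right), from all 12 arrays (dark) and without Eed deficient replicate 3 (red). For Lyz1 the left value goes from 1.30 to -0.11 and the right value from 2.17 to 3.57, while Csf1r stays at 1.65 and 1.68 on the left.

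Whether the genes moved together was read from correlations of log2 values over the 12 arrays. These are descriptions, since the arrays share genotypes, lines and a provider. Lyz1 and Lyz2 enter as separate genes, although their signals cannot be told apart here. Lyz1, Lyz2, C1qb, Ctss, Pf4 and Ms4a7, grouped after their values were seen, had Pearson correlations from 0.88 to 0.99 in their 15 pairs, with a median of 0.96, and a median Spearman correlation of 0.94. Leaving out Eed deficient replicate 3, they ran from 0.85 to 0.99 with the same median of 0.96. The 24 pairs of these 6 genes with the other 4 ran from -0.64 to 0.74 with a median of 0.01, and without that array from -0.66 to 0.71 with a median of -0.02. Csf1r and Cd14 correlated at 0.85 with each other, and Laptm5 and Cd68 at 0.52 (0.84 and 0.51 without that array). All 10 genes thus did not form 1 block. The median over their 45 pairs was 0.598, and the median of their correlations with the 13974 other genes tested was 0.0751.

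Among replicates of a genotype the grouping rested in part on Eed deficient replicate 3. With each gene's genotype means taken off, the 15 pairs of the 6 genes ran from 0.68 to 0.98 with a median of 0.92. Leaving out Eed deficient replicate 3 lowered that median to 0.77 and widened the range to 0.04 to 0.96, and the pairs with C1qb were then the lowest, such as 0.07 with Lyz1. Laptm5, which lay outside the 6 over all arrays, then correlated at 0.90 with Pf4, 0.85 with Lyz1, 0.84 with Lyz2, 0.83 with Ctss and 0.75 with Ms4a7, and at 0.39 with C1qb. With all arrays its values with the 6 genes were 0.08 to 0.41. Without that array the 6 genes were thus not set apart from Laptm5 in how replicates varied. For Lyz1 and Ctss the value without it was 0.92. In wild type, 4 of the 6 had their highest value by a wide margin in replicate 3: Lyz1 lay 1.95, Ms4a7 1.62, Lyz2 1.56 and Ctss 1.02 above the mean of the other arrays. Pf4 lay 0.47 above it and C1qb 0.01. Among double deficient arrays, replicate 2 was the highest for 8 of the 10 genes, where it was for 36.2% of all genes and for 21 of 28 lysosome genes.

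**Figure D3:**
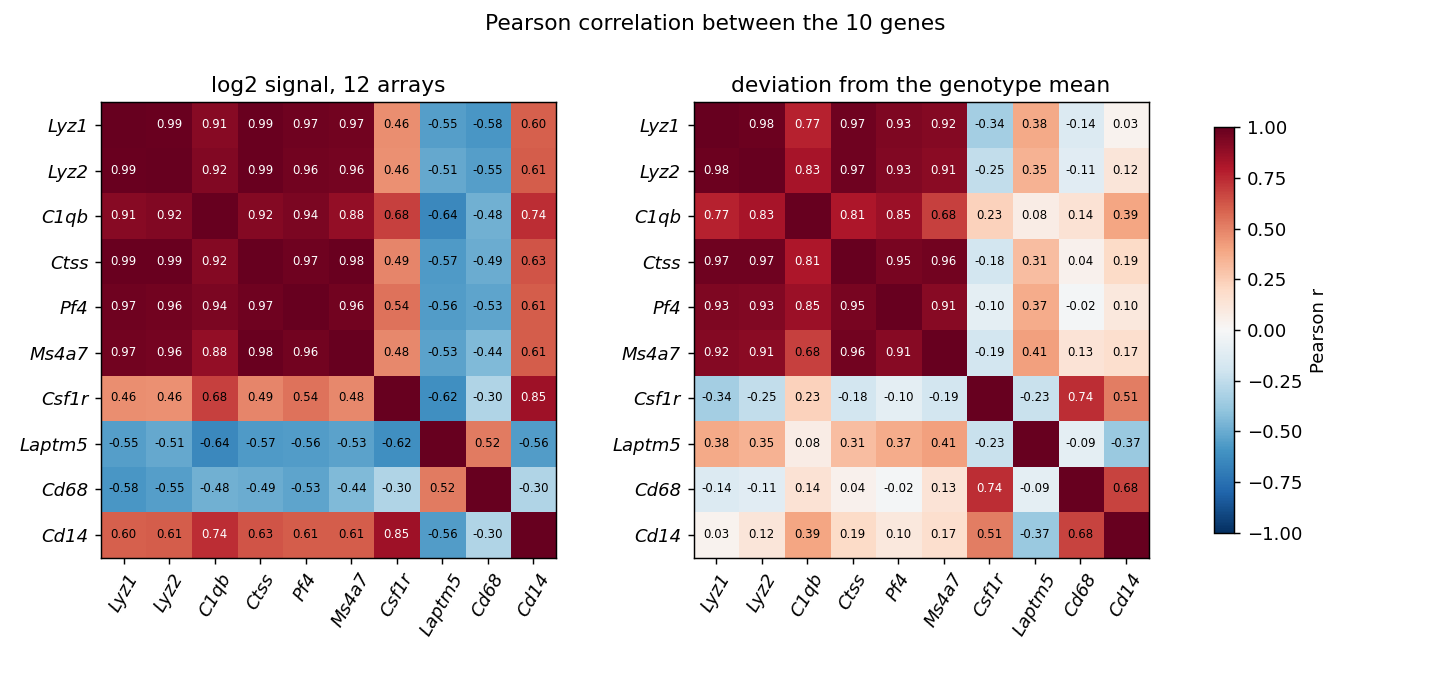
Pearson correlation between the 10 genes over the 12 arrays, in log2 values (left) and after the mean of each genotype was taken off (right), with colour from -1 (blue) to 1 (red). The 6 genes from Lyz1 to Ms4a7 form a block of high values in both panels, which show all 12 arrays, while Csf1r and Cd14, at 0.85 on the left, lie outside it.

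The genes whose pattern over the 12 arrays was most like that of Lyz2 were looked up among all genes tested that are not among the 10. The 8 closest were Clec4n, at a Pearson correlation of 0.97, and Pappa, Prrx1, Tnc, Col6a3, Mgp, Cdh11 and Igfbp7, at 0.95 to 0.96. These 8 were at 0.93 to 0.97 without Eed deficient replicate 3. Clec4n is dectin-2, a fungal receptor of myeloid cells, while Col6a3 is a collagen, Tnc an extracellular matrix protein and Cdh11 a cadherin of mesenchymal cells. Clec4n gave 8.97 to 14.6 on the arrays outside the double deficient group and Eed deficient replicate 3, and 38.1 on the latter. Mgp, matrix Gla protein, gave 88.4, 84.2 and 254 in wild type, 94.9, 61.2 and 60.1 in Ring1B deficient, 101, 117 and 1171 in Eed deficient and 472, 751 and 363 in double deficient replicates, so it had wild type replicate 3 raised as well. Mgp was also the closest gene to the mean deviation of the 10 genes from their genotype means, at 0.98, followed by Fap, at 0.98, Igfbp7, Mfap5, Gzme, Postn, Ntn4 and Casp12, at 0.93 to 0.97. Mgp was at 0.92, Fap at 0.91 and the other 6 at 0.68 to 0.90 without Eed deficient replicate 3.

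The 8 genes closest to Csf1r were Tnfrsf12a, Clip1, Rassf4, Itih5, Igf2, Wnt7b, Tmem65 and Asah2, all at 0.96, and at 0.95 to 0.96 without Eed deficient replicate 3. Igf2, an imprinted growth factor gene, gave 57.7, 179 and 74.2 in wild type, 194, 289 and 160 in Ring1B deficient, 694, 1474 and 1101 in Eed deficient and 1004, 2343 and 1361 in double deficient replicates. No gene was shared between the 8 closest to Lyz2 and the 8 closest to Csf1r.

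A wider list of 41 macrophage genes beyond the 10 was read next. Of these, 37 were on the array and 18 passed the filter. In double deficient cells 6 of the 18 were higher than in wild type and 0 lower (limma, 19.5% and 11.4% of all genes), with a median difference of 0.48 against 0.10 for all genes. When Eed deficient replicate 3 was left out, 5 of the 14 that then passed the filter were higher, where 18.7% of all genes were. Lgals3, galectin-3, which many other cells also make, rose from 206 ± 51.5 to 388 ± 31.9 (SD, n = 3; log2 difference 0.92, SE 0.25, limma adjusted p = 0.0126). The other 5, named after their values were seen, were the Fc receptor Fcgr3, Clec4d, Gpnmb, Msr1 and Ccl9. Fcgr3 gave 6.34, 5.46 and 9.20 in wild type and 43.9, 47.6 and 49.6 in double deficient replicates (log2 difference 2.13, SE 0.22, limma adjusted p = 1.4e-05). Clec4d, Gpnmb, Msr1 and Ccl9 had log2 differences of at least 0.76 with limma adjusted p from 0.00447 to 0.0495. Clec4d and Ccl9 passed the filter only through arrays without Eed, where they were high, and neither passed it without Eed deficient replicate 3. Their calls, and the count of 6 that holds them, thus follow in part from the filter and are a description. Quantile normalization gave 4 higher, the stricter filter on low values 3, and 3 were left without wild type replicate 2, double deficient replicate 1 or double deficient replicate 2.

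Fcgr3 was also the 1 gene of the 18 called higher in Ring1B deficient cells, at 20.7, 37.7 and 28.1, and in Eed deficient cells, at 27.0, 38.1 and 37.8. In both comparisons 1 of 18 is near or under the 4.68% and 10.8% of all genes called higher, and Fcgr3 stayed called in Eed deficient cells without replicate 3 (log2 difference 1.64, SE 0.26). All 9 mutant arrays thus lay above wild type for Fcgr3, unlike for the lysozymes. Of the others called in double deficient cells, Gpnmb, Msr1 and Clec4d had the high arrays of the lysozymes. For these genes, Eed deficient replicate 3 and the double deficient arrays lay above all remaining arrays. Gpnmb gave 66.7 on the first, 74.6, 55.7 and 80.4 on the double deficient arrays and 14.4 to 35.3 on the rest. Msr1 and Clec4d were dim, with highest values of 23.6 and 20.9. Lgals3 and Ccl9 did not separate those arrays from the rest. Ms4a6d was the 1 gene lower in Ring1B deficient cells, where 2.5% of all genes were (log2 difference -1.08, SE 0.30, limma adjusted p = 0.0464), a call lost when any 1 of 10 of the 12 arrays was left out. From Eed deficient to double deficient cells none of the 18 was called by limma, where 1.07% of all genes were called higher and 0.822% lower. At an unadjusted p under 0.05, 2 were higher and 0 lower, near the 10.5% of all genes higher at that bar, with 6.83% lower. Adgre1, 1 of 14, was called higher without Eed deficient replicate 3, where 1.47% of all genes were. The summed signal of the 18 genes was 470 to 596 in wild type, 477 to 689 without Ring1B, 534 to 859 without Eed and 792 to 985 without both, with Eed deficient replicate 3 the highest of its genotype. On Eed deficient replicate 3, 14 of the 18 had their highest value in the genotype, as did 27.8% of all genes. Cx3cr1, Clec4d, Ms4a6d and Ccl9 passed the filter only with that array, and each was highest there. The count of 14 thus follows in part from the filter and is a description.

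Several genes that define macrophages and blood cells were at or near background, while others were not. Ptprc, the leukocyte antigen CD45, stayed between 3.17 and 15.2 on the 12 arrays, Itgam, the integrin CD11b, between 1.29 and 16.9, and Aif1 between 0.437 and 5.08. Some macrophage and leukocyte genes were highest on the arrays where the lysozymes were high. Mpeg1, perforin-2, was under the filter, so its values are close to background. It was at 0.764 to 2.10 on the other 8 arrays, at 9.47 on Eed deficient replicate 3 and at 14.1, 18.5 and 12.9 on the double deficient arrays. Adgre1, the F4/80 antigen, was at 7.01 to 17.1 on the other 8 arrays, at 25.3 on Eed deficient replicate 3 and at 24.5, 32.1 and 29.4 on the double deficient arrays. It was not called in double deficient against wild type cells (log2 difference 0.77, SE 0.32, limma adjusted p = 0.0831) but was called without Eed deficient replicate 3. Ptprc and Itgam did not separate these 4 arrays from the rest. Cd53, a pan-leukocyte gene, was at 2.51 to 15.8 on the other 8 arrays. It was at 38.4 on Eed deficient replicate 3 and at 34.5, 26.4 and 29.8 on the double deficient arrays. Tyrobp, under the filter, was at 5.95 to 11.8, at 16.9, and at 12.4, 22.7 and 15.1 in that order. Coro1a, Ptpn6, Inpp5d and Arhgdib were above the filter's bar on all 12 arrays, but of these only Arhgdib was highest on the 4. Ptpn6 was lowest on them, at 60.1 on Eed deficient replicate 3 and 49.0, 57.9 and 51.0 on the double deficient arrays, against 67.8 to 117 elsewhere. Was gave 19.4, 14.0 and 22.2 in wild type, 6.42 on Eed deficient replicate 3 and 11.3, 0.538 and 14.9 on the double deficient arrays. Ms4a6c, at 17.6, 24.0 and 50.2 in wild type, gave 19.0, and 13.5, 8.62 and 36.1 in that order.

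Among 13 tested genes of myeloid growth factors and transcription factors, 3 were higher without Eed and 4 without both proteins by limma, where 10.8% and 19.5% of all genes were. None was lower, and the counts were also 3 and 4 without Eed deficient replicate 3. Csf1, the ligand of Csf1r, gave 63.1, 45.5 and 68.1 in wild type, 91.4, 64.3 and 57.6 in Ring1B deficient, 130, 103 and 218 in Eed deficient and 207, 234 and 236 in double deficient replicates. It rose by 1.23 in Eed deficient (SE 0.25, limma adjusted p = 0.00487) and by 1.87 in double deficient cells (SE 0.25, limma adjusted p = 0.000104). Without Eed deficient replicate 3, the highest of its genotype, the Eed deficient difference was 0.93 (SE 0.22, limma adjusted p = 0.0209). Csf1 and the brightest probe set of Csf1r were thus both higher without Eed, while 1 other Csf1r probe set overlapped with wild type. Cebpa, Maf and, in double deficient cells, Nr1h3 were the others called, named after their values were seen. Spi1 and Irf8 were not called, with log2 differences of 0.31 and 0.63 in double deficient cells.

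In the Toll-like receptor pathway, where Cd14 acts, 4 of 14 tested genes were higher and 1 lower in double deficient cells by limma, where 19.5% and 11.4% of all genes were, and without Eed deficient replicate 3 the counts were 3 and 1 of 13. The adaptor genes Tirap and Myd88 rose from 65.7 ± 6.78 to 145 ± 0.285 and from 55.8 ± 5.13 to 107 ± 2.41 (SD, n = 3), log2 differences of 1.09 and 0.88. Nfkbia, which encodes an inhibitor of the factor NF-kappa-B, fell from 1060 ± 90.4 to 725 ± 45.1, and Tlr2 and Il6, named after their values were seen, were the others called. Il6 passed the filter only through arrays without Eed, where it was high, so its call is a description. Of 7 tested complement genes, C1s1, a protease of the C1 complex, was the 1 called, a share under the 19.5% of all genes called higher, and rose from 22.5 ± 4.06 to 92.1 ± 20.3 (log2 difference 1.81, SE 0.20, limma adjusted p = 2.4e-05).

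Lysosome genes had a pattern unlike that of Ctss. Of 28 tested, 5 were higher without Ring1B, 6 without Eed and 11 without both by limma, and 2 were lower, both in Eed deficient cells. The shares called higher over all genes were 4.68%, 10.8% and 19.5%, and 4.56% were called lower without Eed. Leaving out Eed deficient replicate 3 gave 5 higher and 0 lower without Eed, where the shares over all genes were 7.25% and 2.4%. Ctsc, cathepsin C, rose from 130 ± 4.81 in wild type to 813 ± 207 in Ring1B deficient cells, and Ctsh, cathepsin H, gave 16.8, 28.6 and 26.6 in wild type, 175, 442 and 198 in Ring1B deficient, 204, 619 and 290 in Eed deficient and 387, 460 and 375 in double deficient replicates. Eed deficient replicate 3 was not the highest of its genotype for Ctsh, and had the highest value for 3 of the 28, where it had for 27.8% of all genes.

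Of the other blood cell lists, the pan-leukocyte genes had 3 of 11 higher and 1 lower in double deficient cells by limma, among them Arhgdib, which rose from 87.1 ± 28.4 to 223 ± 11.6 (SD, n = 3). Neutrophil genes had 2 of 5 higher and platelet genes 2 of 8. The shares over all genes were 19.5% higher and 11.4% lower, so the pan-leukocyte and platelet counts were not far from them. The counts higher were 2 of 11, 1 of 5 and 2 of 8 without Eed deficient replicate 3. Lymphocyte genes had 0 of 6 and erythroid genes 0 of 3 called by limma in any genotype against wild type. At an unadjusted p under 0.05, 1 lymphocyte gene was lower in each mutant genotype and 0 erythroid genes passed in either direction. At that bar 9.38%, 11% and 16% of all genes were lower in Ring1B, Eed and double deficient cells, and 11.1%, 18.4% and 25.8% were higher.

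Genes of 2 other cell types were set beside the lysozymes, because ES cultures can hold them. The summed signal of 17 fibroblast and feeder cell genes was 4456, 4107 and 4380 in wild type, 3772, 3227 and 2699 in Ring1B deficient, 5043, 5191 and 9986 in Eed deficient and 10278, 11146 and 10204 in double deficient replicates. It was thus high on the same 4 arrays as the summed signal of the 6 genes from Lyz1 to Ms4a7, which was 1221 on Eed deficient replicate 3, 711 to 1097 on the double deficient arrays and 49.7 to 243 on the other 8. All 17 fibroblast genes had their highest Eed deficient value in replicate 3, as did 27.8% of all genes. Fap passed the filter only with that array, so its place in the count follows from the filter. Of the 17, 14 were higher in double deficient and 7 in Eed deficient cells than in wild type by limma, where 19.5% and 10.8% of all genes were. Without that array 14 of 16 were called higher in double deficient and 3 of 16 in Eed deficient cells, where 18.7% and 7.25% of all genes were. Col1a2, a chain of type I collagen, gave 173, 151 and 176 in wild type, 238, 292 and 650 in Eed deficient and 676, 884 and 696 in double deficient replicates. The part of such cells in the lysozyme signal was not tested.

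Primitive and visceral endoderm genes had other high arrays. Their summed signal over 19 genes was 1707 to 2360 in wild type, 5707 to 8100 without Ring1B, 7800 to 12581 without Eed and 10796 to 12760 without both, and Eed deficient replicate 3 was the lowest of its genotype. Of the 19 genes, 14, 16 and 16 were higher in Ring1B, Eed and double deficient cells by limma, where 4.68%, 10.8% and 19.5% of all genes were. In Eed deficient cells 17 were higher without replicate 3. Pluripotency genes summed to 21118 to 22170 in wild type and 14888 to 17030 in double deficient cells, and 7 of 10 were lower there by limma, where 11.4% of all genes were, or 6 of 10 without Eed deficient replicate 3.

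**Figure D4:**
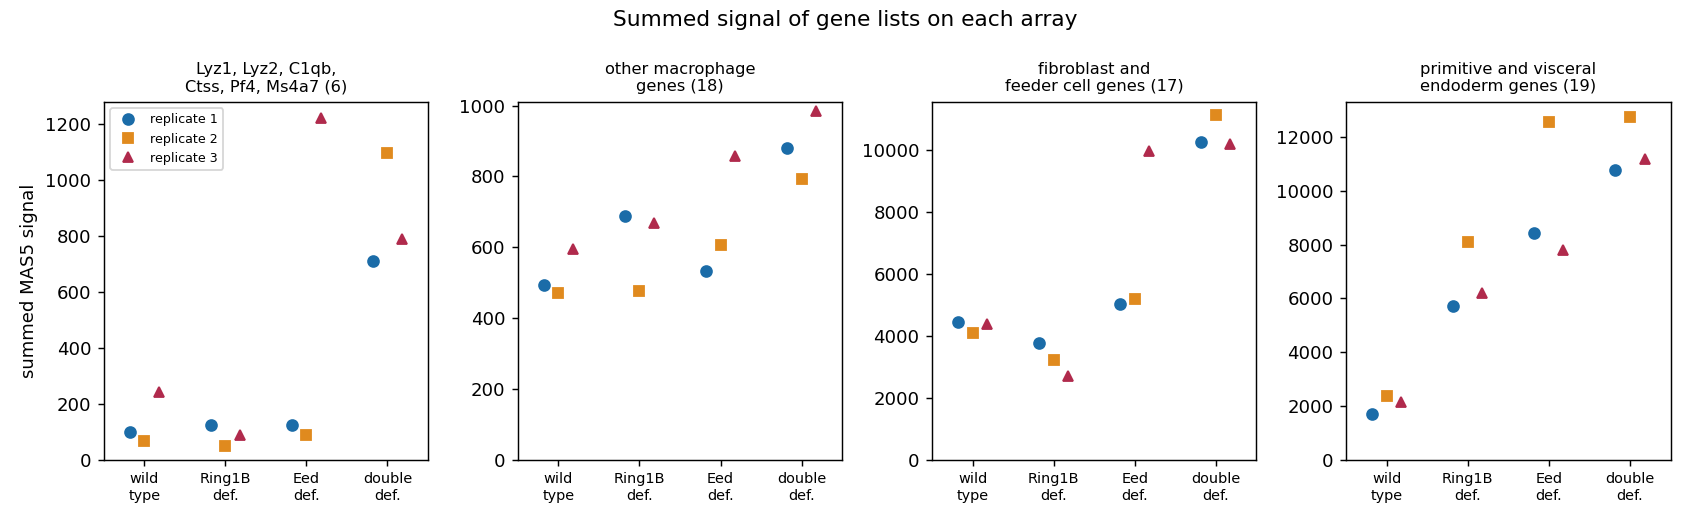
Summed MAS5 signal (linear axis from 0) on each of the 12 arrays for the 6 genes from Lyz1 to Ms4a7, for 18 other macrophage genes, for 17 fibroblast and feeder cell genes and for 19 endoderm genes, with a colour and a shape per replicate number. Eed deficient replicate 3 (triangle) lies near the double deficient arrays in the 3 panels from the left, at 1221 for the lysozyme group and 9986 for the fibroblast genes, and is the lowest Eed deficient array in the last.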

How the data were processed

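The authors deposited intensity values that MAS5 had produced, per the submitters' processing notes; no version or settings are given. They were already scaled, so no further normalization was applied (ratio of array medians 1.47). The number of arrays limits the precision. Of 45037 probe sets without array controls, 34945 carried 1 gene symbol in the platform annotation and 34741 of these matched a RefSeq gene of GRCm38.p6. Probe sets above the array's 40th percentile on 3 or more of the 12 arrays were kept (30027), and the brightest one by mean log2 signal stood for its gene (13984 genes). After 5 was added, log2 values were fitted with limma 3.58.1 in R 4.3.3, with 1 mean per genotype and an intensity trend, and p-values were adjusted by Benjamini-Hochberg over all genes. The fit was tested on simulated data. Alternatives were quantile normalization, median centring, 1 or 32 added, other filters, no trend, other uses of probe sets, a replicate block and each array left out.

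The 10 genes, the gene lists and the tests were chosen with earlier results of these data known. Named genes are the 10, Rnf2 and Eed, from each list up to 4 called genes with the largest difference from wild type among those above the median level whose arrays do not overlap, and the 8 most like Lyz2, Csf1r and the mean deviation. Pearson correlations were taken over log2 values.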

Additional observations from a re-analysis of the deposited data

Results flagged for a closer look

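For C1qb, Ctss and Ms4a7, every double deficient array lay above the Eed deficient mean and every Ring1B deficient array lay below the wild type mean. The mean differences with Ring1B deficiency thus had opposite signs without and with Eed. The opposite direction itself was not tested. The interaction in log2(signal + 5) was 0.88 for C1qb (SE 0.57), 1.61 for Ctss (SE 0.69) and 1.82 for Ms4a7 (SE 0.86), and limma called none of the 3. Double deficient minus Eed deficient was 0.70, 1.28 and 1.37, and Ring1B deficient minus wild type was -0.18, -0.33 and -0.45, in the same order. Both had SEs of 0.40, 0.49 and 0.61, so each difference of Ring1B deficient from wild type was smaller than its SE. The Ring1B deficient signals of these genes were also all under the filter's bar. Without Eed deficient replicate 3 the interaction was 1.46, 2.34 and 2.61, and limma called that of Ctss. That array was set apart by the high values of these genes, so nothing is read from the call. Without wild type replicate 3, Ring1B deficient minus wild type was 0.01 for Ctss and 0.09 for Ms4a7.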

How the results depend on the processing

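Limits: 3 arrays per genotype, no second line of a genotype and signals near background bound the precision, and detection calls were not used here. No alternative other than leaving out an array turned the direction of a difference. Of the 10 genes in double deficient against wild type cells, 1 was called lower. That count was 2 under quantile normalization, median centring and the replicate block, and 0 with 32 added, no filter, no trend, the mean of probe sets or every probe set. Of the other macrophage genes, the 1 called lower in Ring1B deficient cells became 0 with 32 added, the stricter filter or every probe set. The 6 called higher in double deficient against wild type cells became 3 under the stricter filter, the 0 from Eed to double deficient became 2 without a filter, and the 0 in the interaction became 1 without the trend. Same-numbered arrays correlated from -0.048 to 0.614 in their deviations, 13 of 18 pairs over 0.1, and 9 of 12 arrays correlated best with their own number, a hint from the data and not the design. With the replicate number as a block, 1 of the 10 genes was called higher in Ring1B deficient cells (0 without), 1 higher from Eed to double deficient (0) and 1 lower in the interaction (0). Of the other macrophage genes the block gave 2 higher in Ring1B deficient and 2 in Eed deficient cells (1 each without), and 1 higher and 1 lower in the interaction (0 each). Leaving out 1 array at a time, the 10 genes had 4 to 8 higher and 0 to 1 lower in double deficient against wild type, 1 to 2 higher in Eed deficient, 0 to 1 higher in Ring1B deficient, 0 to 5 higher from Eed to double deficient and 0 to 3 higher in the interaction. The other macrophage genes had 3 to 5 higher and 0 to 1 lower in double deficient cells, 0 to 1 lower in Ring1B deficient cells, and 0 to 1 higher both from Eed to double deficient and in the interaction. Uncalled differences that changed sign are given as their range without 1 array. Ring1B deficient minus wild type ran from -1.19 to 0.10 for Lyz1, -0.66 to 0.23 for Lyz2, -0.56 to 0.0063 for Ctss and -0.74 to 0.091 for Ms4a7, highest without wild type replicate 3, and from -0.19 to 0.21 for Cd68. Eed deficient minus wild type ran from -0.11 to 2.22 for Lyz1, -0.29 to 1.50 for Lyz2, -0.22 to 0.91 for Ctss, -0.013 to 1.02 for Pf4 and -0.13 to 1.20 for Ms4a7, lowest without Eed deficient replicate 3. Double deficient minus Eed deficient ran from -0.34 to 0.20 for Csf1r and -0.65 to 0.10 for Cd68, and the interaction of Cd68 from -0.71 to 0.039, all highest without Eed deficient replicate 2. The cause of these changes was not tested. The median correlation over the 45 pairs stayed between 0.507 and 0.709 without any 1 array.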

Other observations

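Eed deficient replicate 3 held 16 further genes at least 4-fold above the other Eed deficient arrays, chosen here for that value. They included the granzyme gene Gzme, at 13.5, 13.1 and 97.5 in Eed deficient replicates 1 to 3, the mast cell protease gene Mcpt8, the metalloprotease genes Mmp13 and Mmp3, and the mesenchymal factors Twist2, Snai2 and Prrx1. Twist2 gave 47.6, 28.4 and 42.9 on the double deficient arrays and 54.7 on Eed deficient replicate 3. Gzme gave 36.9, 50.7 and 29.7 on the double deficient arrays. Meg3, an imprinted long non-coding RNA, had another pattern, at 1265, 675 and 894 in wild type, 43.9, 37.1 and 50.5 in Ring1B deficient, 39.9, 35.7 and 244 in Eed deficient and 144, 133 and 118 in double deficient replicates.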
